A study of Homo sapiens with 12 samples.

Results

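The TNFα response of HCT116 WT cells in the presence of camptothecin (CPT) was described from 2 of the 12 libraries of the series, which were those of WT cells given CPT and left without TNFα (0 h) or stimulated with TNFα for 1 h. HCT116 is a human colon cancer cell line, and CPT is an inhibitor of topoisomerase 1 (TOP1). The series holds RNA-seq read counts for WT cells and for a p65-deficient clone, each without inhibitor, with 5 µM CPT or with 5 µM of the TOP2 inhibitor ICRF193, and each at 0 h or 1 h of TNFα at 20 ng/mL. The question was how much of the TNFα response remained while TOP1 was inhibited. Both CPT libraries came from cells pre-incubated with the inhibitor for 2 h. The labels allow that the TNFα library spent the additional hour in CPT as well, and then longer CPT exposure and TNFα cannot be told apart in the pair. The comparison pairs were WT cells without inhibitor at 0 h and 1 h, WT cells with ICRF193 at 0 h and 1 h, and p65-deficient cells with CPT at 0 h and 1 h. The p65-deficient cells are a single clone made with CRISPR-Cas9 according to the study's methods, whereas their labels name an shRNA. RELA, the gene for p65, had 694 and 727 normalized counts in the 2 WT CPT libraries and 673 and 643 in the 2 p65-deficient CPT libraries. The transcript was thus present in the clone, and the counts carry no measure of the protein.

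TNFα binds its receptor TNFR1 and activates the IκB kinases, which trigger the degradation of IκBα and release NF-κB dimers such as p65/p50 into the nucleus. Within the first hour these dimers induce chemokine genes and the genes of the pathway's own inhibitors, among them IκBα (NFKBIA) and A20 (TNFAIP3). TOP1 relaxes the supercoils that arise ahead of and behind a transcribing RNA polymerase, and CPT traps the enzyme on nicked DNA.

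The 2 CPT libraries held 17115637 counted reads at 0 h and 19759677 at 1 h, and the other WT libraries held 16300210 to 22051046. Each condition is 1 library, so no test between conditions was possible and no p-value is given. Ratios of size-factor-normalized counts (1 h over 0 h) are given on the log2 scale, each with its exact 95% interval after Clopper and Pearson. These intervals describe the error of counting alone, take reads as independent molecules, and compare libraries rather than treatments. A gene entered a comparison with at least 20 reads in at least 1 of the 2 libraries. All values are relative to the library, and fewer responding cells and less RNA per responding cell cannot be told apart in bulk RNA. The colon epithelial markers EPCAM, KRT8, KRT18, CDH1 and CDX2 were present in both CPT libraries, from 214 reads (CDX2) to 32205 reads (KRT8), whereas VIL1 had at most 1 read. The leukocyte marker CD3E was at 0, and PTPRC, PECAM1, COL1A2 and DCN had at most 2 reads. The other leukocyte and endothelial markers had at most 9 reads, and the fibroblast marker COL1A1 had 162 and 159.

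With CPT, the normalized count of 61 of 13272 genes (0.46%) at 1 h of TNFα exceeded that at 0 h by more than 2-fold, and 19 (0.143%) were more than 2-fold lower. Without inhibitor, 51 of 13012 genes (0.392%) were past 2-fold in the upward and 69 (0.53%) in the downward direction, and with ICRF193 it was 65 (0.51%) and 19 (0.149%) of 12737. The 1 h library was the deeper one with CPT and with ICRF193, and the shallower one without inhibitor. Genes with few reads passed the filter more easily through the deeper library. The part of depth in the balance of higher and lower genes was not tested. Of the genes past 2-fold upward, 6 were shared between the pair with CPT and the pair without inhibitor. The 51 genes induced without inhibitor, whose interval also lay above 0, are followed below as the TNFα-induced genes. Their choice rests on the 2 libraries that received no inhibitor, and these do not enter the CPT ratio.

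Only 6 of these 51 genes were still more than 2-fold higher with CPT, namely CXCL8, CXCL1, CXCL2, CXCL3, TNFAIP3 and NUAK2. With CPT, 43 of the 51 reached 20 reads and 8 did not. In the ICRF193 pair, which also took no part in choosing the genes, 32 of the 51 were more than 2-fold higher, among them all 6. The median log2 ratio over all 51 was 0.33 with CPT (1.25-fold), 1.12 with ICRF193 and −0.13 in p65-deficient cells with CPT, against 0.01 over all genes tested with CPT. Without inhibitor it was 1.34, a value that the choice of genes sets.

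**Figure D1:**
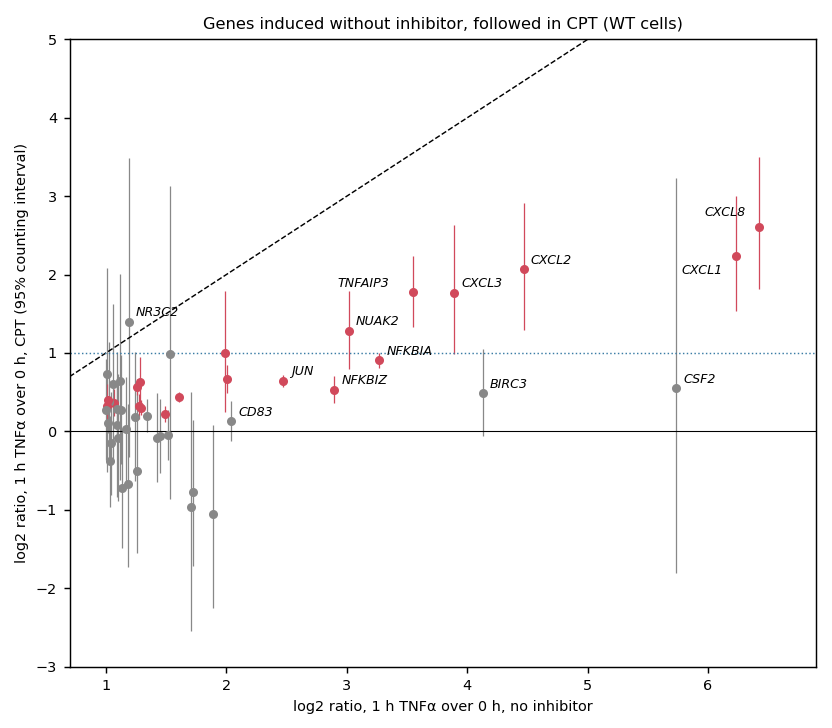
TNFα log2 ratio of the genes induced without inhibitor, without inhibitor (x axis) and with CPT (y axis, bars are 95% counting intervals), for the 49 genes with a finite ratio on x. Red genes have an interval above 0 with CPT, the dashed line marks equal ratios and the dotted line marks 2-fold: CXCL8, CXCL1, CXCL2, CXCL3, TNFAIP3 and NUAK2 lie above the dotted line with red bars, all of them below the dashed line.

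To show what the promoters of these genes hold, the RefSeq sequences (GRCh38.p14) of 250 bases before the gene start are printed for 4 of the 6 genes that stayed above 2-fold with CPT, and for 2 genes with strong induction without inhibitor that fell below it. Capitals mark matches to the κB consensus or to the shorter spelling GGANNTTCC on either strand, and overlapping matches are marked as one run.

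CXCL8 (chr4:73740319-73740568, plus strand): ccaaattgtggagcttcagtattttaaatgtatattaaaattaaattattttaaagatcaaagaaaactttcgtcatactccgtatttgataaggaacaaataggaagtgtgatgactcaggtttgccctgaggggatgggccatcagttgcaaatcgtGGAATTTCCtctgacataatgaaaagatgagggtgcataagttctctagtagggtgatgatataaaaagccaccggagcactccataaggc

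CXCL1 (chr4:73869143-73869392, plus strand): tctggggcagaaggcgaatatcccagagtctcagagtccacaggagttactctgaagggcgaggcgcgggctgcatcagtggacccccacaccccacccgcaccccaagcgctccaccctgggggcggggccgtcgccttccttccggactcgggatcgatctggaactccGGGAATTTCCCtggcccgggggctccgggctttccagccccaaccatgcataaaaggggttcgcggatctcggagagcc

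TNFAIP3 (chr6:137867009-137867258, plus strand): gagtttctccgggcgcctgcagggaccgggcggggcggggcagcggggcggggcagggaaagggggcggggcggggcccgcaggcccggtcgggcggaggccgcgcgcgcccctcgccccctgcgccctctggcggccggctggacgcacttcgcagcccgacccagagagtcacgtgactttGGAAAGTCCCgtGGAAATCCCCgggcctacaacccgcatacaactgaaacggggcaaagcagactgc

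NUAK2 (chr1:205321746-205321995, minus strand): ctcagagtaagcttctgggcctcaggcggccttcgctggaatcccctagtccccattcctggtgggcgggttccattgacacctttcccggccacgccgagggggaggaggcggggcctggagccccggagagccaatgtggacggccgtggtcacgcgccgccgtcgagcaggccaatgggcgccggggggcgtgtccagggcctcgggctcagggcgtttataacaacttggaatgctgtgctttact

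NFKBIA (chr14:35404750-35404999, minus strand): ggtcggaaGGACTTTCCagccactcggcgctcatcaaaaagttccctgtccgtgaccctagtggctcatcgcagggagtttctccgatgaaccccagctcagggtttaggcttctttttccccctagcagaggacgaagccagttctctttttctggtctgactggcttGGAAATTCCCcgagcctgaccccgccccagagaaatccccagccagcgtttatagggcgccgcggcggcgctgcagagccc

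BIRC3 (chr11:102317234-102317483, plus strand): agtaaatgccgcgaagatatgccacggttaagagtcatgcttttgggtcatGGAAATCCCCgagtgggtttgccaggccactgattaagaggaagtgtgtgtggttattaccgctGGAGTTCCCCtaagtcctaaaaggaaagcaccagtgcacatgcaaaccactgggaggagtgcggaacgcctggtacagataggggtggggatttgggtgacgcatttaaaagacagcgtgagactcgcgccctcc

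Positions are those of the first base of a match, counted back from the gene start. CXCL8 held GGANNTTCC at -91, CXCL1 held both motifs around -79, and TNFAIP3 held a κB match at -67 that overlaps GGANNTTCC and another κB match at -55. NFKBIA held both around -81 and a further GGANNTTCC at -242, BIRC3 held κB matches at -199 and -135, and NUAK2 held neither. Over the searched window of 300 bases, reaching 50 bases past the start, GGANNTTCC was present in 5 of the 6 genes above 2-fold with CPT, with NUAK2 as the exception, the κB consensus in 4, TATAAA in 2 and TGANTCA in 1. GGANNTTCC was found in 11 of the 39 TNFα-induced genes with a promoter in the table (28.2%) and in 4.59% of all 27305 promoters. Among the induced genes it was present in 7 of 17 whose CPT interval lay above 0 and in 4 of 22 whose interval included 0. The κB consensus was present in 8 of 17 and 7 of 22 of these groups, with 10.8% of all promoters. The TATA box spelling TATAAA was present in 7 of 17 and 2 of 22, with 12% of all promoters, and the AP-1 spelling TGANTCA in 2 of 17 and 2 of 22, with 7.76%. These counts are descriptions of letters in a fixed window, and both strands were searched. The 2 groups of induced genes also differ in depth. Genes with a CPT interval above 0 had a median of 695 reads at 1 h with CPT, and the others had 29. CXCL1, CXCL2 and CXCL3 are near-identical copies that count as separate promoters in the first group. The part of depth and of gene copies in these counts was not tested.

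Of the chemokine genes, CXCL8, CXCL1, CXCL2 and CXCL3 stayed above 2-fold with CPT. They encode ligands of the receptors CXCR1 and CXCR2 that attract neutrophils, and lie in a cluster on chromosome 4. CXCL8 (chr4:74606223-74609433, hg19), the gene for interleukin-8, had 12 and 831 reads without inhibitor and 15 and 104 reads with CPT. Its log2 ratio was 6.42 without inhibitor and 2.61 (1.82 to 3.49) with CPT. The normalized count at 1 h was 675 without inhibitor and 75.9 with CPT, so that the gene kept 9.51% of the counts it gained without inhibitor. CXCL1 (chr4:74735109-74737019) went from 6 to 365 reads without inhibitor and from 20 to 107 with CPT. The log2 ratio with CPT was 2.23 (1.53 to 3.0), and 21% of the gain was kept. Both genes thus kept a ratio above 2-fold but reached a lower level at 1 h than without inhibitor.

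CXCL2 (chr4:74962754-74964997) had 11 and 197 reads without inhibitor and 17 and 81 with CPT, with a log2 ratio of 2.07 (1.30 to 2.91) and 29.5% of the gain kept. CXCL3 (chr4:74902312-74904490) had 9 and 108 reads without inhibitor and 17 and 66 with CPT, with a log2 ratio of 1.77 (0.98 to 2.63) and 41.6% of the gain kept. CXCL1, CXCL2 and CXCL3 are near-identical copies, and reads may have been split between them, so the order among the 3 is uncertain. CCL20, which encodes a chemokine for dendritic cells and lymphocytes, had 0 and 54 reads without inhibitor, at least 22.3-fold against a floor of 3 reads, and 1 and 5 reads with CPT. CSF2, the gene for GM-CSF, had 1 and 43 reads without inhibitor and 3 and 5 with CPT. At these depths a CPT ratio could not be determined for either gene, but at 1 h their log2 level with CPT was −3.59 and −3.26 relative to no inhibitor. CSF1 (M-CSF) had 84 and 139 reads without inhibitor and 56 and 49 with CPT, with a log2 ratio of −0.38 (−0.96 to 0.20), and EDN1, which encodes endothelin, had 11 and 29 without inhibitor and 12 and 7 with CPT.

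Over the whole list of 32 chemokine and cytokine genes, 11 were tested with CPT, of which 4 were more than 2-fold higher, 5 had an interval above 0 and 1 had an interval below 0. The fifth above 0 was LIF, at 0.21, and the one below 0 was IL18, at −0.19. Of all genes tested with CPT in WT cells, 12.1% had an interval above 0 and 9.34% below 0, which is the background for the WT counts of this kind. The median of the list was 0.21 with CPT (11 genes) and 1.71 without inhibitor (13 genes).

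**Figure D2:**
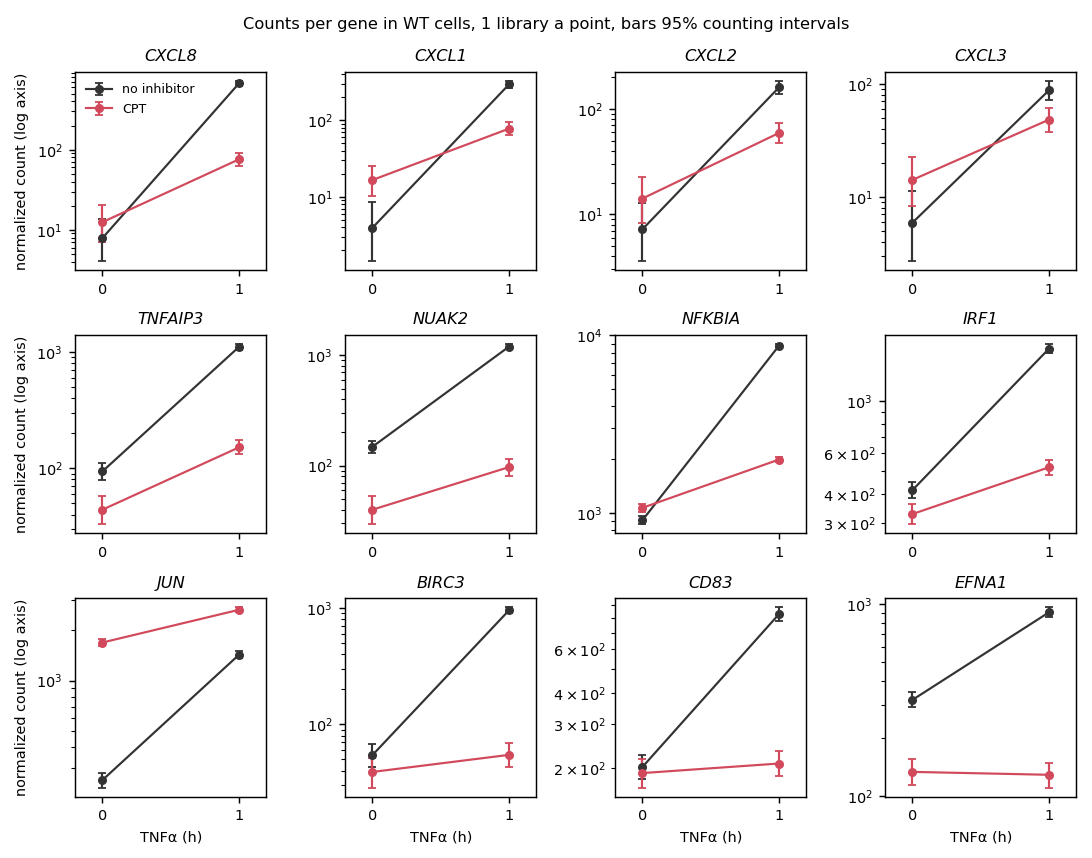
Normalized counts (log axis) at 0 h and 1 h of TNFα in WT cells without inhibitor (grey) and with CPT (red) for 12 TNFα-induced genes. Each point is 1 library and bars are 95% Poisson counting intervals: the red lines rise less steeply than the grey lines, JUN runs above the grey line at both times, and BIRC3, CD83 and EFNA1 have overlapping bars at 0 h and 1 h with CPT.

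Of the genes for the pathway's inhibitors, TNFAIP3 (chr6:138188325-138204451), which encodes the ubiquitin-editing enzyme A20, went from 143 to 1357 reads without inhibitor. With CPT it had 53 and 207 reads and a log2 ratio of 1.78 (1.34 to 2.24), and it kept 10.6% of the gain. Relative to no inhibitor, its log2 level with CPT was −1.09 at 0 h and −2.87 at 1 h. NFKBIA (chr14:35870716-35873960), the gene for IκBα, had 1385 and 10789 reads without inhibitor and 1285 and 2738 with CPT. Its log2 ratio fell from 3.27 to 0.90 (0.81 to 1.00), just under 2-fold, and 11.9% of the gain was kept. NFKBIZ, which encodes the nuclear protein IκBζ, had 128 and 770 reads without inhibitor and 422 and 695 with CPT. At 0 h its level was already higher with CPT than without inhibitor (log2 2.06), and the TNFα log2 ratio was then 0.53 (0.36 to 0.71).

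NFKBIE and NFKBID, which encode further IκB proteins, were not among the 51 genes and had log2 ratios of 0.87 and 0.59 without inhibitor. With CPT they were 0.51 (0.30 to 0.72) and 0.79 (0.40 to 1.18). For NFKBID the difference between CPT and no inhibitor was 0.19 (−0.27 to 0.67), so the counts did not separate the 2 ratios. ZC3H12A, the gene for the RNase regnase-1, was at 0.32 with CPT and 1.28 without inhibitor. BCL3, which encodes a nuclear IκB-like protein, had a log2 ratio of −0.06 (−0.53 to 0.42) with CPT and 1.45 without inhibitor, and ZFP36, the gene for the mRNA-destabilizing protein tristetraprolin, had 0.20 (−0.01 to 0.41) and 1.34. Among the 14 tested feedback inhibitors, 7 had an interval above 0 with CPT and none below, and the list median was 0.21 with CPT and 0.73 without inhibitor.

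The 5 NF-κB subunit genes split. NFKB2, which encodes p100/p52, went from 1700 to 3284 reads without inhibitor (log2 1.26) and had 1230 and 2081 reads with CPT, where the log2 ratio was 0.57 (0.47 to 0.67). RELB had 0.33 (0.06 to 0.60) with CPT and 1.01 without inhibitor. NFKB1 and RELA had intervals that included 0 with CPT, at 0.02 and 0.07. REL, the gene for c-Rel, went the other way, from 359 to 424 reads without inhibitor (log2 0.55) and from 126 to 100 reads with CPT, −0.52 (−0.91 to −0.13). The difference of the REL ratios, CPT minus no inhibitor, was −1.07 (−1.51 to −0.62).

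Among the survival genes, BIRC3 (chr11:102188181-102210135), which encodes the apoptosis inhibitor cIAP2, was induced strongly without inhibitor and little with CPT. It had 83 and 1175 reads without inhibitor and 47 and 75 with CPT. The log2 ratio was 4.13 without inhibitor, 4.37 with ICRF193 and 0.49 (−0.06 to 1.05) with CPT, and 1.74% of the gain was kept. IER3, a stress-responsive survival gene, kept an interval above 0, with 10733 and 17589 reads without inhibitor and 5032 and 7538 with CPT, a log2 ratio of 0.40 (0.34 to 0.45). BIRC2 and XIAP, which encode other inhibitors of apoptosis, had log2 ratios of −0.22 and −0.26 with CPT, both with intervals below 0. BIRC2 is counted below with the receptor complex. Of the 9 tested genes of the survival list, 2 had an interval above 0 and 1 below, and the median was 0.01. Of the 19 tested genes of the receptor complex and its kinases, 4 had an interval above 0 (RIPK1, TRAF5, RNF31 and SHARPIN, at most 0.37). In that list 1 was below 0 (BIRC2), and the median was 0.05. IKBKE and MAP3K8, the 2 of them induced without inhibitor (1.09 and 1.43), were at 0.29 and −0.08 with CPT, with intervals that included 0.

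Of the remaining NF-κB targets, NUAK2 (chr1:205271191-205290919), which encodes an AMPK-related kinase, was the one past 2-fold with CPT. It had 226 and 1478 reads without inhibitor and 48 and 133 with CPT, a log2 ratio of 1.28 (0.80 to 1.79), and its level at 0 h was already lower with CPT than without inhibitor (log2 −1.90). At 1 h it therefore reached fewer normalized counts with CPT (97.0) than it had without inhibitor and without TNFα (148), and 5.44% of the gain was kept. IRF1, a transcription factor of the interferon response, had 634 and 2062 reads without inhibitor and 396 and 714 with CPT, a log2 ratio of 0.66 (0.48 to 0.84). ELF3, an epithelial transcription factor, and TNFAIP2 were at 0.30 and 0.22 with CPT, with intervals above 0. CD83 went from 308 to 1023 reads without inhibitor (log2 2.04) and from 230 to 286 with CPT, 0.13 (−0.13 to 0.38), and EFNA1, the gene for ephrin-A1, from 484 to 1121 without inhibitor and from 161 to 177 with CPT, −0.05 (−0.37 to 0.27). PLAU and SDC4, just under 2-fold without inhibitor (0.97 and 0.93), were at 0.06 and −0.03 with CPT. The 18 tested genes of the list had a median of 0.07 with CPT and 0.79 without inhibitor, with 4 intervals above 0 and none below.

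The AP-1 and immediate early genes differed among themselves in their level with CPT alone. At 0 h the level with CPT relative to no inhibitor had an interval above 0 for 9 of the 17 genes and below 0 for 7, among them FOSL1 (−1.21) and FOSL2 (−1.29). No such count was made over all genes, so whether these shares are particular to the list cannot be told. JUN had 390 and 1753 reads without inhibitor and 2025 and 3608 with CPT. At 0 h its log2 level with CPT relative to no inhibitor was 2.72, the TNFα log2 ratio in CPT was 0.65 (0.57 to 0.73), and 81.5% of the gain in normalized counts was kept, the highest share among the 51 genes. JUNB had 2149 and 5298 reads without inhibitor and 3811 and 5881 with CPT, with a log2 ratio of 1.61 without inhibitor and 0.44 (0.38 to 0.50) with CPT. Its normalized count at 1 h was the same in both (4301 and 4291), reached from a higher level at 0 h with CPT. ATF3 was at 0.37 (0.19 to 0.54) with CPT and 1.07 without inhibitor. FOS, whose log2 level with CPT alone was 4.16 relative to no inhibitor, was at 0.16 (0.09 to 0.23), and MYC, for which that level was −2.87, was at 0.20 (0.12 to 0.28). In all, 11 of the 17 genes had an interval above 0 with CPT and none below, with a median of 0.18. In p65-deficient cells with CPT, 2 of 17 had an interval above 0 and 6 below, with a median of −0.04. Over all genes tested in that pair, 11.6% were above 0 and 12.2% below.

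**Figure D3:**
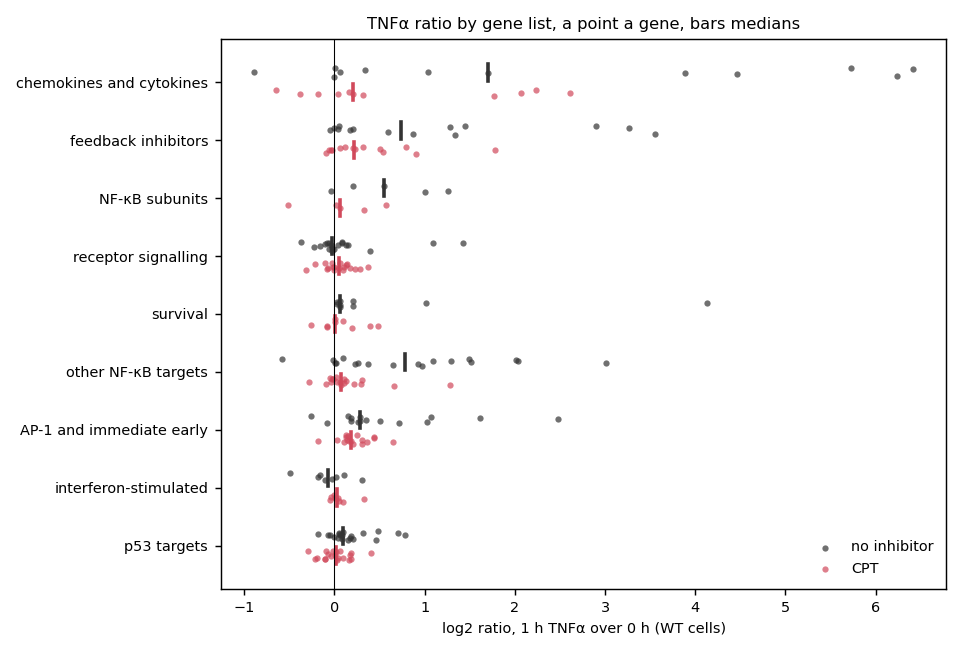
TNFα log2 ratios in WT cells without inhibitor (grey) and with CPT (red) by gene list, for the members with at least 20 reads in each comparison and a finite ratio, with bars for the list medians. The medians moved from 1.71 to 0.21 for chemokines and cytokines, from 0.73 to 0.21 for feedback inhibitors and from 0.79 to 0.07 for other NF-κB targets.

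In the lists chosen for other pathways, 1 of 8 tested interferon-stimulated genes (IRF7, 0.32) and 4 of 20 p53 targets had an interval above 0 with CPT, with medians of 0.03 and 0.01. The p53 target SESN2 was at 0.41 (0.13 to 0.69), while MDM2 and CCNG1 were at −0.19 and −0.22 with intervals below 0. Of 40 tested histone genes, 12 had an interval above 0 and 1 below, with a median of 0.13, and in p65-deficient cells with CPT none was above 0 and 17 were below, with a median of −0.21. The 40 genes had a median GC content of 57.4%, and in the highest of 20 GC bins over all genes the median ratio was 0.13 in WT and −0.17 in p65-deficient cells. The part of GC content in these values was not tested. The genes that CPT alone raised more than 2-fold in p65-deficient cells, a choice made on 2 other libraries, were followed as well. Of 665 tested, 20 were more than 2-fold higher with TNFα in the WT CPT pair. An interval above 0 was found for 80 and below 0 for 14, with a median of 0.10. Of 607 tested genes that CPT lowered there, none was more than 2-fold higher. Of these, 35 had an interval above 0 and 37 below, with a median of −0.01.

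Of the 51 TNFα-induced genes, 31 belonged to the lists above and 20 did not. The lists were written with earlier results of these data known, so values of listed and unlisted genes are a description. The 31 had a median log2 ratio of 0.40 with CPT and 1.64 with ICRF193, and 29 of them were more than 2-fold higher with ICRF193. Of the 20, N4BP3 was at 0.63 (0.32 to 0.95) with CPT and 1.28 without inhibitor, and C10orf55, which overlaps PLAU on the other strand, was at 1.00 (0.25 to 1.79), just under 2-fold. The other 18 had 20 to 60 reads at 1 h without inhibitor, and all of their CPT intervals included 0. Their ratios ran from −1.05 to 1.40 with CPT, with 11 above 0, and 1 of the 18 was more than 2-fold higher with ICRF193. This was TNFRSF9, a gene of the TNF receptor family, which had 0 and 29 reads without inhibitor, a log2 ratio of at least 3.58 against a floor of 3 reads, and 5 and 6 reads with CPT.

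Counted over all 51 genes, 20 had an interval above 0 with CPT, none had one below, and 31 had an interval that included 0. The ratio itself was above 0 for 39 and below 0 for 12. The difference of the log2 ratios, CPT minus no inhibitor, had an interval below 0 for 37 of the 51 genes and above 0 for none, with a median of −1.20, against 10.7% of 13556 genes below 0. The libraries without inhibitor both chose the genes and enter this difference, so the count is a description. At 1 h the level with CPT was more than 2-fold below that without inhibitor for 30 of the 51, against 5.11% of 13334 genes. At 0 h the median log2 level with CPT relative to no inhibitor was 0.14, with shifts in both directions. There the interval lay above 0 for 18 of the 51 genes and below 0 for 13. For these 0 h levels no such count was made over all genes. For 19 of the 31 genes whose interval included 0 the upper bound was also below 2-fold, and for the other 12 the counts could not tell a 2-fold increase from none. The 20 genes with an interval above 0 had a median of 695 reads at 1 h and at least 50, and the 31 others had a median of 29.

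As normalized counts, the 51 genes together gained 35864 counts without inhibitor and 6502 with CPT, or 18.1% of the gain. The libraries without inhibitor both chose the genes and set the denominator, which can lower the share kept, so the shares are a description. Per gene the median share kept was 11.9%. It exceeded 25% for 17 genes and 50% for 3, and was negative for 12. For genes with few reads the share is poorly determined, so these counts are uncertain. It was 58.4% for COX20 with a counting standard error of 60.3, and −27.2% for C18orf32 with 57.9. For the deeply counted IER3 it was 18.3% with a standard error of 1.24. IER3 supplied 20.2% of the summed gain without inhibitor and 20.3% with CPT, NFKBIA 21.9% and 14.3%, and JUN 3.25% and 14.6%. The fold ratio and the share of counts gave different orders, since CXCL8 had the highest ratio with CPT and supplied 0.975% of the summed gain. Levels per kilobase of exon were compared without IER3. Its listed exon length (7440 bp) is summed over several positions and exceeds its span (1352 bp), which makes its value too low. Among the other induced genes, the 3 with the highest level at 1 h with CPT were JUNB (2363 normalized counts per kilobase), NFKBIA (1275) and JUN (792). CXCL1 and CXCL2 were at 65.5 and 49.1. Without inhibitor NFKBIA stood first, at 5589, again with IER3 left out.

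Where reads were plentiful, the residual response stood out from the other genes. Of 4493 genes with at least 1000 reads in either CPT library, the 5 with the highest TNFα ratio were NFKBIA, JUN, NFKB2, JUNB and IER3, all of them TNFα-induced genes, followed by SLC25A25 at 0.38. At low counts this was not so. Of the 61 genes past 2-fold in the CPT pair, 55 were not among the 51, and 54 of these 55 had fewer than 50 reads in both libraries. Their median was 25 reads at 1 h. An interval above 0 without inhibitor was found for 2 of the 55, against 1341 of the 13012 genes tested in that pair. Many of the 55 fell below the minimum of reads there, so their ratio without inhibitor was poorly determined. When at least 50 reads were required, 7 genes remained above 2-fold, the 6 named above and C3orf62 (1.07). All 19 genes more than 2-fold lower had at most 45 reads.

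**Figure D4:**
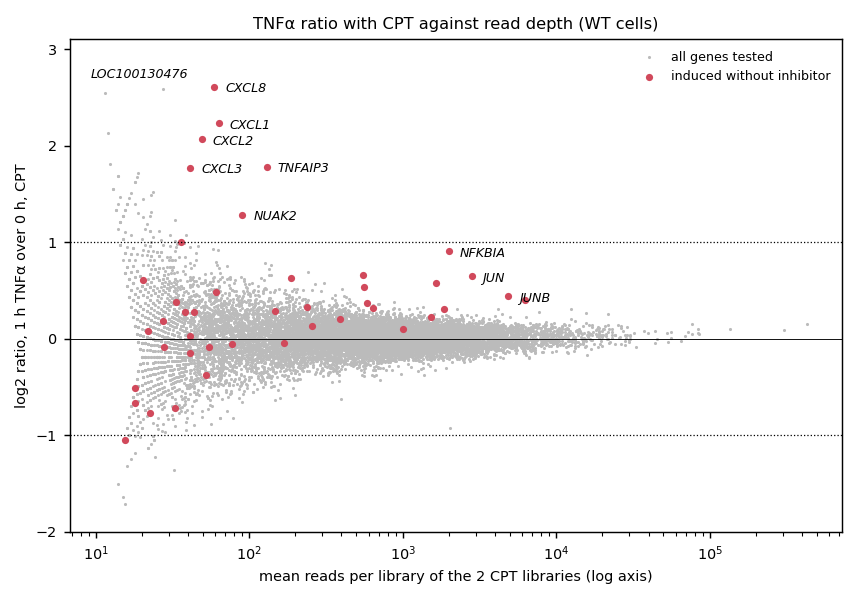
TNFα log2 ratio with CPT in WT cells against the mean reads of the 2 libraries (log axis), for the tested genes (grey) and the TNFα-induced genes among them (red), with dotted lines at 2-fold. The spread narrows with depth, and NFKBIA, JUN and JUNB lie above the grey cloud while CXCL8, CXCL1, CXCL2, CXCL3, TNFAIP3 and NUAK2 lie above the upper dotted line.

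Of the genes outside the 51 named by the highest lower bound, LOC100130476 (chr6:138144807-138189370, minus strand) was among them, with 7 and 48 reads with CPT and a log2 ratio of 2.59 (1.44 to 3.98). Without inhibitor it had 8 and 18 reads (1.48), and the difference of the ratios was 1.11 (−0.78 to 3.01). It lies on the strand opposite to TNFAIP3 and overlaps its first part, and the file headers show no strand option in the counting, so its reads and those of TNFAIP3 pre-mRNA cannot be told apart. NYNRIN (3 and 20 reads), PLA2G4C (8 and 30), STAR (4 and 20), ST3GAL4-AS1 (11 and 36) and PODNL1 (8 and 29) rested on few reads. Among the genes that were lower with TNFα in CPT, those named by the lowest upper bound with at least 100 reads included NDUFC2, HNRNPA1, MTERF1, PROS1, SRP9 and TMED7, at −0.62, −0.63, −0.58, −0.62, −0.42 and −0.37.

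The same pair was then read in p65-deficient cells with CPT, where 12 of 13164 genes (0.0912%) were more than 2-fold higher. In that pair 119 were more than 2-fold lower. Its 1 h library was the shallower one, so genes with few reads passed the filter more easily through the 0 h library. The part of depth in these 2 counts was not tested. Over all 51 TNFα-induced genes, chosen on neither CPT pair, the difference of the ratios, WT minus p65-deficient, had an interval above 0 for 19, with a median of 0.43, against 15.4% of 13531 genes. The values of single genes below are a description, because these genes are named for a high ratio in the WT CPT pair, which is one side of the difference. CXCL8 had 15 and 5 reads in p65-deficient cells, under the minimum of 20, and the difference was 3.03 (1.21 to 5.00). TNFAIP3 had 68 and 36 reads there, which is a log2 ratio of 0.24 after normalization, and the difference was 1.53 (0.76 to 2.31). NUAK2 had 104 and 25 reads there, with a log2 ratio of −0.89 (−1.59 to −0.25), and the difference was 2.18 (1.34 to 3.03). NFKBIA was at −0.04 (−0.16 to 0.08), and the difference was 0.94 (0.79 to 1.10).

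For JUN and RELB, of the 20 genes with an interval above 0 in WT cells, the interval of the difference included 0. JUN was the one gene of the 20 with an interval above 0 in both, at 0.65 in WT and 0.77 (0.67 to 0.88) in p65-deficient cells, and the difference was −0.13 (−0.26 to 0.0027). The 1 h library of the p65-deficient pair held 8154407 reads and its 0 h library 18502365. The ratio also moved with GC content, from a median of −0.12 in the lowest of 20 GC bins to 0.13 in the highest in WT cells, and from 0.17 to −0.17 in p65-deficient cells. The part of depth and GC content in the differences was not tested. The median GC content was 51.2% for the induced genes and 49.1% for all tested genes.

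**Figure D5:**
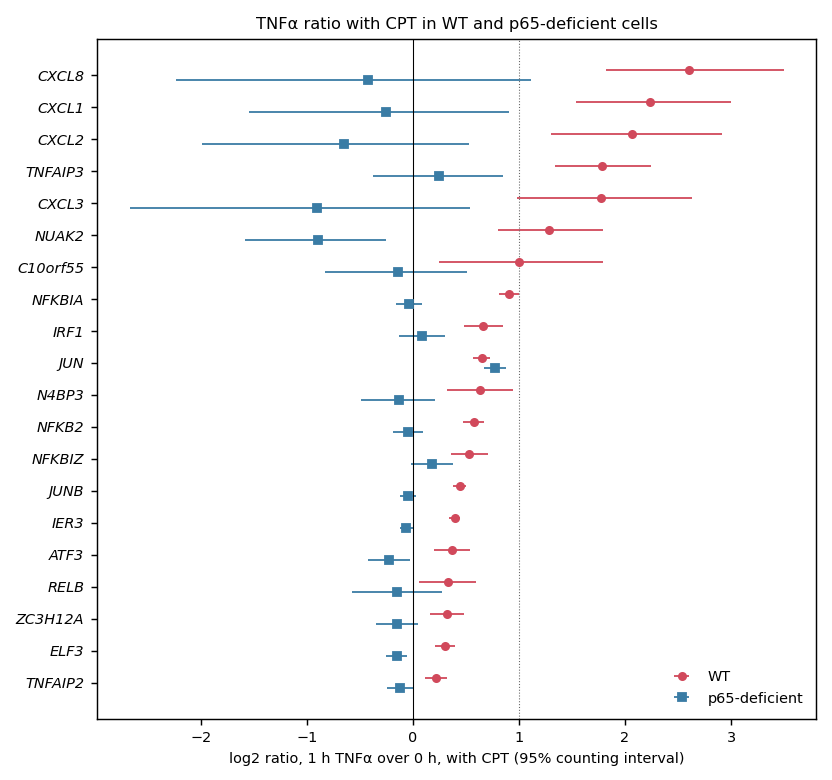
TNFα log2 ratio with CPT in WT (red circles) and p65-deficient cells (blue squares) for the 20 TNFα-induced genes whose WT interval lay above 0, with 95% counting intervals and a dotted line at 2-fold. All genes except JUN have the WT point to the right of the p65-deficient point.

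Gene length was compared with the residual response because TOP1 relieves torsional stress along transcribed genes. The 6 genes above 2-fold with CPT spanned 1911 to 19729 bp (median 2728), and the 43 others with a finite ratio in both pairs had a median of 11113 bp. The genes under 5 kb were also the more strongly induced ones without inhibitor, with a median log2 ratio of 2.47 (13 genes), against 1.28 for 5 to 20 kb (23 genes) and 1.11 above 20 kb (13 genes). With CPT the medians were 0.55, 0.28 and 0.33, and 4, 2 and 0 genes were more than 2-fold higher. Across these 49 genes Spearman's correlation coefficient between span and the CPT ratio was −0.01, and between span and the share of the gain kept it was 0.05. With the ratio without inhibitor it was −0.30, and with the difference of the ratios, CPT minus no inhibitor, it was 0.34, a difference that contains the ratio used to choose the genes. Between the ratio without inhibitor and that with CPT it was 0.40. These correlations are over genes of the same libraries, which are not independent replicates.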

How the data were processed

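RNA-seq libraries were prepared by the authors from total RNA with a stranded kit. Per the file headers and the submitters' processing notes, the authors trimmed reads with Trimmomatic and deposited featureCounts 1.5.0 exon counts for 26364 gene symbols on hg19, with no normalization and no strand option. STAR and deepTools are listed in these notes without a role. The deposited counts were divided by DESeq2 1.42.0 size factors over all 12 libraries (edgeR 4.0.16 for TMM). Log2 ratios used no pseudocount. With 1 library a side, 95% intervals are exact Clopper-Pearson intervals of the read split, and those of differences are exact conditional odds-ratio intervals. Both were tested on simulated data. Genes named were members of the gene lists, the TNFα-induced genes, and the 15 genes with the highest lower bound and the 15 with the lowest upper bound. Of the genes this rule names, 1 is not reported here. The members and lists were chosen with earlier results of these data known. Promoter sequences came from RefSeq GRCh38.p14, and no coordinates were converted between builds. Gene positions are those of the files (hg19). Alternatives were other normalizations, added counts, read filters and centring by GC content. Figures were drawn with matplotlib 3.10.9. Intervals were computed with scipy 1.17.1 in Python 3.11.15, beside pandas 2.3.3 and numpy 2.4.6, and size factors in R 4.3.3.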

Additional observations from a re-analysis of the deposited data

Results flagged for a closer look

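For 6 of the genes reported here the TNFα ratio with CPT went in opposite directions in WT and p65-deficient cells, each past 1.5-fold with an interval that excluded 0. With 1 library a condition, the difference between the cell lines was not tested against replicates. Only named genes were compared, and no such count was made over all genes. PODNL1, STAR, HNRNPA1, NDUFC2 and SNORA32 were named for their ratio in the WT CPT pair, 1 side of the comparison, so the 6 are a description. Over all tested genes, 12.1% had an interval above 0 and 9.34% below in WT cells with CPT. In p65-deficient cells with CPT it was 11.6% and 12.2%. NUAK2 had a log2 ratio of 1.28 in WT and −0.89 in p65-deficient cells, and PODNL1 had 1.67 and −1.01. STAR had 2.13 and −2.23, on 4 and 20 reads in WT cells and 21 and 2 in p65-deficient cells. HNRNPA1 had −0.63 and 0.81, NDUFC2 had −0.62 and 0.66, and SNORA32 had −0.83 and 0.92. The p65-deficient 1 h library held 8154407 reads against 18502365 at 0 h, and the median ratio moved with GC content in opposite directions in the 2 cell lines. The part of both in these values was not tested.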

How the results depend on the processing

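Counts of genes depended on the read filter and little on the scaling. Genes more than 2-fold higher numbered 61, and 98 with at least 20 reads in any of the 12 libraries, 26 with at least 40 reads in both together, 7 with at least 50 reads in 1 of them and 1598 with no read filter. Genes more than 2-fold lower numbered 19, and 48, 9, 0 and 1398 under the same filters. The TNFα-induced genes still above 2-fold with CPT numbered 6, and 10 with at least 20 reads in any library and 15 with no filter, where the induced set itself grew to 60 and 94 genes. Under the other normalizations, the added counts, the requirement of an interval and the GC centring (chosen after seeing the data, on 94.6% of the tested genes) these counts were 47 to 61, 13 to 22 and 6. The median of the induced genes was 0.29 to 0.42 under all alternatives run. CXCL8, CXCL1, CXCL2, CXCL3, TNFAIP3 and NUAK2 stayed at 1.21 or higher. Of 1338 further values of named genes, 15 left their own counting interval. A change of sign was looked for only in genes past 2-fold, and 0 were found. The other normalizations moved a log2 ratio by at most 0.02, so they could not have given one.

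No paired analysis was possible because the labels carry no replicate numbers and each condition has 1 library, so leaving out a replicate was not possible either. Depth limits the genes under about 50 reads.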
